A study of Mus musculus with 7 samples.

Results

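The transcripts of 10 enzymes that remove superoxide and hydrogen peroxide were examined in retinal pigment epithelium (RPE) of aged mice. They were the superoxide dismutases Sod1, Sod2 and Sod3, catalase (Cat), and the peroxiredoxins Prdx1 to Prdx6. The genes were chosen by symbol as whole families, and all 10 were present among the 21861 rows of the count table. Every one of them passed the expression filter, which left 15075 genes for testing.

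The RPE is the pigmented cell layer behind the photoreceptors. All animals were aged mice, and all tissue was taken 12 weeks after treatment with an adeno-associated virus (AAV) vector. The Old-GFP group (3 libraries) received AAV-GFP, the vector control, and the Old-GSTA4 group (4 libraries) received AAV-GSTA4, which carries a glutathione transferase that conjugates reactive aldehydes. The labels name no strain, sex, age in months, vector promoter, route, untreated group or pooling of animals. No source says that the libraries came from separate animals, so p-values measure only the spread between these libraries.

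Superoxide leaks from mitochondrial electron transport and is made by oxidases. Superoxide dismutases convert it to hydrogen peroxide, which is then broken down by catalase in peroxisomes and reduced by peroxiredoxins in most compartments of the cell. The RPE is exposed to light and to a high oxygen supply, and it degrades the lipid-rich outer segments shed by photoreceptors, so these enzymes are a main line of its defence against oxidation. The comparison asked whether their transcripts differed between eyes given the 2 vectors.

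Library totals ranged from 15329181 to 28998964 counts. The hGSTA4 row had 1 to 3 counts in Old-GFP and 4209, 5239, 45 and 1184 counts in Old-GSTA4 replicates 1 to 4, so the row followed the labels, although Old-GSTA4 replicate 3 had little of it. The d2EGFP row had 99, 3970 and 2361 counts in Old-GFP and 163, 64, 7 and 26 counts in Old-GSTA4, so the library labelled Old-GFP replicate 1 had fewer than 1 Old-GSTA4 library. The library labelled Old-GFP replicate 3 stood apart, with a mean correlation to the others of 0.838 against 0.910 to 0.926, and a TMM scaling factor (edgeR's trimmed-mean correction of the library total) of 1.36 against 0.868 to 1.05. RPE markers were abundant: Rpe65, the retinoid isomerase, lay at 1767 to 11831 CPM (read counts scaled to a common library size), and none of the 16 listed was at 0 in any library. Best1, a chloride channel of the RPE, was low at 1.15 to 3.32 CPM. Rod photoreceptor markers were present in every library, and the 20 listed summed to 19037 to 48234 CPM in Old-GFP and 10251 to 17816 CPM in Old-GSTA4, with no overlap. The 9 Müller glia markers summed to 4694 to 6264 CPM and 7338 to 9767 CPM, of which Apoe alone was 3292 to 8983 CPM, and 5 of the 9 had a log2 fold change below 0. The 12 lens markers summed to 2842 to 11670 CPM and 4240 to 113302 CPM, highest in Old-GSTA4 replicate 2. In bulk RNA, fewer cells of a type and less RNA per cell cannot be told apart.

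Cat had the smallest p-value of the 10 genes, and Prdx1 was the most abundant, so the sequence just upstream of each is shown (RefSeq, GRCm38.p6, 5′ to 3′ on the gene's strand, from 250 bases before the start site up to the first annotated GENCODE M21 exon base). Capitals in Cat mark CCAAT, a motif bound by NF-Y, on either strand. Capitals in Prdx1 mark TGACNNNGC on either strand, the core of the antioxidant response element bound by NRF2. Neither motif overlapped another of those searched.
Cat, chr2:103485161-103485403, minus strand: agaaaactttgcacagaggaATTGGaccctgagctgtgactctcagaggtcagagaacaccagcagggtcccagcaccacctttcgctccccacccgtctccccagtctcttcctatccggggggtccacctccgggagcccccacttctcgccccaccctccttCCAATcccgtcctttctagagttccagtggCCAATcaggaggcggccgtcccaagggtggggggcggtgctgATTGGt
Prdx1, chr4:116685349-116685543, plus strand: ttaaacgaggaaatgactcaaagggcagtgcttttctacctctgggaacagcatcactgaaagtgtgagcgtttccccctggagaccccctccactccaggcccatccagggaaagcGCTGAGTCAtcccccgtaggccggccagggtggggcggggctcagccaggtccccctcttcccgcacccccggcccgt

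Of the 10 genes, 8 had a promoter in the RefSeq table, and the 250 bases before the start site were searched in each. CCAAT had 4 matches in Cat and was present in 4 of the 8 promoters (Cat, Sod1, Sod2 and Prdx4), against 33.8% of all 32851 promoters. TGACNNNGC was found in Prdx1 and Sod1, 2 of the 8, against 10.2% of all promoters. The GC box GGGCGG was found in 7 of the 8 (not in Prdx2), against 32.7% of all promoters. The TATA box TATAAA was found in Prdx1, Sod1 and Prdx3, against 12.4% of all promoters, and the forkhead motif TGTTTAC in none of the 8, against 3.17%. The repeat of AGGTCA with 1 base between the copies, a form of the sequence bound by PPAR receptors, was also in none of the 8, against 0.0335% of all promoters. A match describes the letters in the window and is not evidence of binding.

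Levels were set side by side per kilobase of exon (CPM divided by the union of GENCODE M21 exons, which is not necessarily the annotation the authors counted on). Prdx1, a cytosolic peroxiredoxin, led with 536 CPM per kb over the 7 libraries, and it exceeded Cat in 7 of 7 libraries. Cat (201 CPM per kb) and Prdx6 (171 CPM per kb) exchanged places, with Cat higher in 4 of 7 libraries. Prdx2 (151 CPM per kb), Prdx5 (110 CPM per kb) and Prdx3 (95.8 CPM per kb) followed. The superoxide dismutases came after them, at 33.2 CPM per kb for Sod1, 20.3 CPM per kb for Sod2 and 11.1 CPM per kb for Sod3, and Prdx4 was lowest at 6.54 CPM per kb. The only neighbours whose ranges over the libraries did not overlap were Prdx3 and Sod1, where Prdx3 was 2.27- to 3.92-fold the level of Sod1 within a library.

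**Figure D1:**
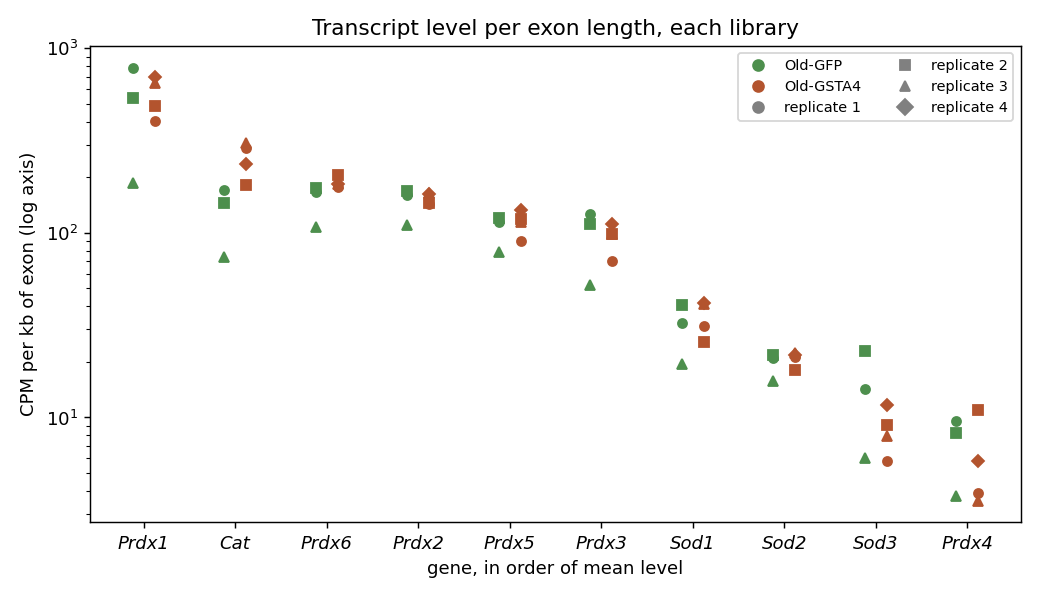
CPM per kb of exon (vertical, log axis) for each of the 10 genes (horizontal, in order of mean level), with 1 point per library, green for Old-GFP and brown for Old-GSTA4. Prdx1 lies highest at a mean of 536 CPM per kb and Prdx4 lowest at 6.54, and the lowest point of 8 of the 10 genes is the Old-GFP replicate 3 library.

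None of the 10 genes passed the threshold of 0.05 in edgeR's quasi-likelihood test after Benjamini-Hochberg adjustment, and neither did any other gene (0.00% of 15075). Cat was the 1 gene of the 10 below 0.05 before adjustment, where the background was 11.9% of all genes tested, 5.27% higher and 6.63% lower. In DESeq2, which called 1.34% of the genes it adjusted, 0 of the 10 were called. The log2 fold change of Old-GSTA4 against Old-GFP was above 0 for 7 of the 10 and below 0 for 3, against 44.6% above and 55.4% below 0 among all genes, and its median was 0.11 against -0.07. In Old-GFP replicate 3, 8 of the 10 genes had their lowest TMM-scaled level of the 7 libraries, and 3 of the 10 had it there when levels were relative to the library total. Without that library 2 of the 10 were above 0 (Cat and Prdx6), and with library totals in place of TMM it was also 2, while the median of all genes moved to -0.37. Relative to the median of all genes, 8 of the 10 lay above it with TMM scaling and 8 with library totals, but 2 without Old-GFP replicate 3, 2 with a rod marker score as covariate and 2 with an RPE marker score.

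**Figure D2:**
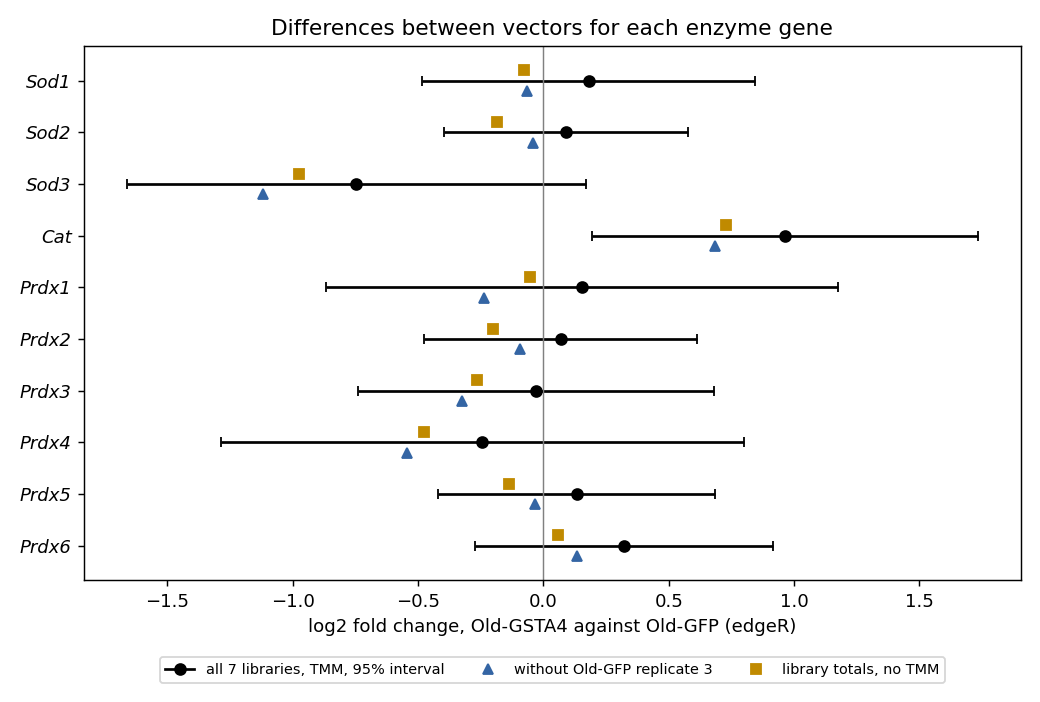
Log2 fold change of Old-GSTA4 against Old-GFP (horizontal) for each gene, with black points and 95% intervals from edgeR for all 7 libraries, blue triangles for the fit without Old-GFP replicate 3, and yellow squares for library totals without TMM scaling. Cat is the single gene whose interval lies above 0 (0.20 to 1.73). Sod3 lies farthest below 0.

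Cat encodes catalase, the heme enzyme of peroxisomes that splits hydrogen peroxide into water and oxygen, and lies on chromosome 2 (103453849 to 103485160, minus strand, GRCm38). It was measured at 446, 382 and 193 CPM in Old-GFP replicates 1 to 3 and at 757, 475, 805 and 619 CPM in Old-GSTA4 replicates 1 to 4. All 4 Old-GSTA4 libraries lay above all 3 Old-GFP libraries, the closest being 475 CPM in Old-GSTA4 replicate 2 and 446 CPM in Old-GFP replicate 1. Old-GFP averaged 340 CPM ± 131 (SD, n = 3) and Old-GSTA4 664 CPM ± 149 (SD, n = 4). The fold change was 1.95 (95% interval 1.15 to 3.32), a log2 fold change of 0.96 ± 0.34 (SE) that did not pass over all genes (edgeR, adjusted p = 0.373). Without the library labelled Old-GFP replicate 1 the log2 fold change was 1.21 (adjusted p = 0.30), and without Old-GFP replicate 3 it was 0.68 (adjusted p = 0.352).

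Groups that did not overlap were common in these data, at 12.0% of all genes tested (6.44% higher and 5.61% lower in Old-GSTA4), and 2 of the 10 genes were among them (Cat and Prdx6, both higher). Relative to the library total instead of the TMM-scaled total, Cat was at 441 CPM in Old-GFP replicate 1 and 429 CPM in Old-GSTA4 replicate 2, so the groups overlapped. Under that scaling 1 of the 10 genes separated the groups (Sod2, lower), against 14.0% of all genes in either direction, 12.0% lower and 2.02% higher. The log2 fold change of Cat was 0.73 with library totals, which was 1.10 above the median of all genes, against 1.04 above it with TMM scaling. Its direction was the same in all 18 alternatives, over which it ranged from 0.61 to 1.21. Adjusted p ran from 0.0967 in limma-voom with quality weights per library to 0.865 with a replicate block. DESeq2 gave 0.98 (adjusted p = 0.103).

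The RPE and erythrocyte markers were set beside Cat. The 16 RPE markers summed to 24211 to 73314 CPM in Old-GFP and 64048 to 114089 CPM in Old-GSTA4. Both Cat and this sum were highest in Old-GSTA4 replicate 3 and lowest in Old-GFP replicate 3. Rgr alone was 12273 to 61493 CPM over the libraries and weighed on the sum. The log2 fold change was above 0 for 12 of the 16 RPE markers. It was below 0 for 4, the pigment genes Mlana (-0.94), Pmel (-0.70), Tyrp1 (-0.47) and Dct (-0.069). The RPE and rod scores were means of log2 CPM over the listed markers, not sums. With an RPE score as covariate, the log2 fold change of Cat was 0.62 (edgeR, adjusted p = 0.312), and with a rod score it was 0.61 (adjusted p = 0.702). Erythrocytes hold much catalase, and the 8 erythrocyte markers in the table summed to 440 to 1040 CPM in Old-GFP and 425 to 2476 CPM in Old-GSTA4. Slc4a1 (band 3) and Epb42 each had 0 counts in 1 library, and the hemoglobin genes were detected in all. Within Old-GSTA4 the order of the libraries was the same for Cat and for this sum: replicate 3, then 1, 4 and 2. Over all libraries the order differed. The sum was lowest in Old-GSTA4 replicate 2, where Cat lay above every Old-GFP library. Within Old-GFP the sum was highest in replicate 2 and Cat in replicate 1. No fit used an erythrocyte score. The rod sums did not overlap between the groups, so the fit with the rod score cannot tell rods and vector apart. The part of any of these cell types in the difference was not tested.

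Libraries also differed in Y-linked transcripts, which were high in Old-GFP replicate 1 and Old-GSTA4 replicates 3 and 4. Within those 3 libraries the mean log2 CPM of Cat was 0.66 higher in Old-GSTA4, and within the other 4 libraries it was 1.14 higher. For Sod3 the same differences were -0.57 and -0.70, and for Prdx1 they had opposite signs, at -0.22 and 0.49. Each class holds 1 to 2 libraries per group. With the class as a covariate in edgeR's test, the log2 fold change was 0.93 for Cat (adjusted p = 0.458), -0.80 for Sod3 (adjusted p = 0.564) and 0.088 for Prdx1 (adjusted p = 0.962).

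**Figure D3:**
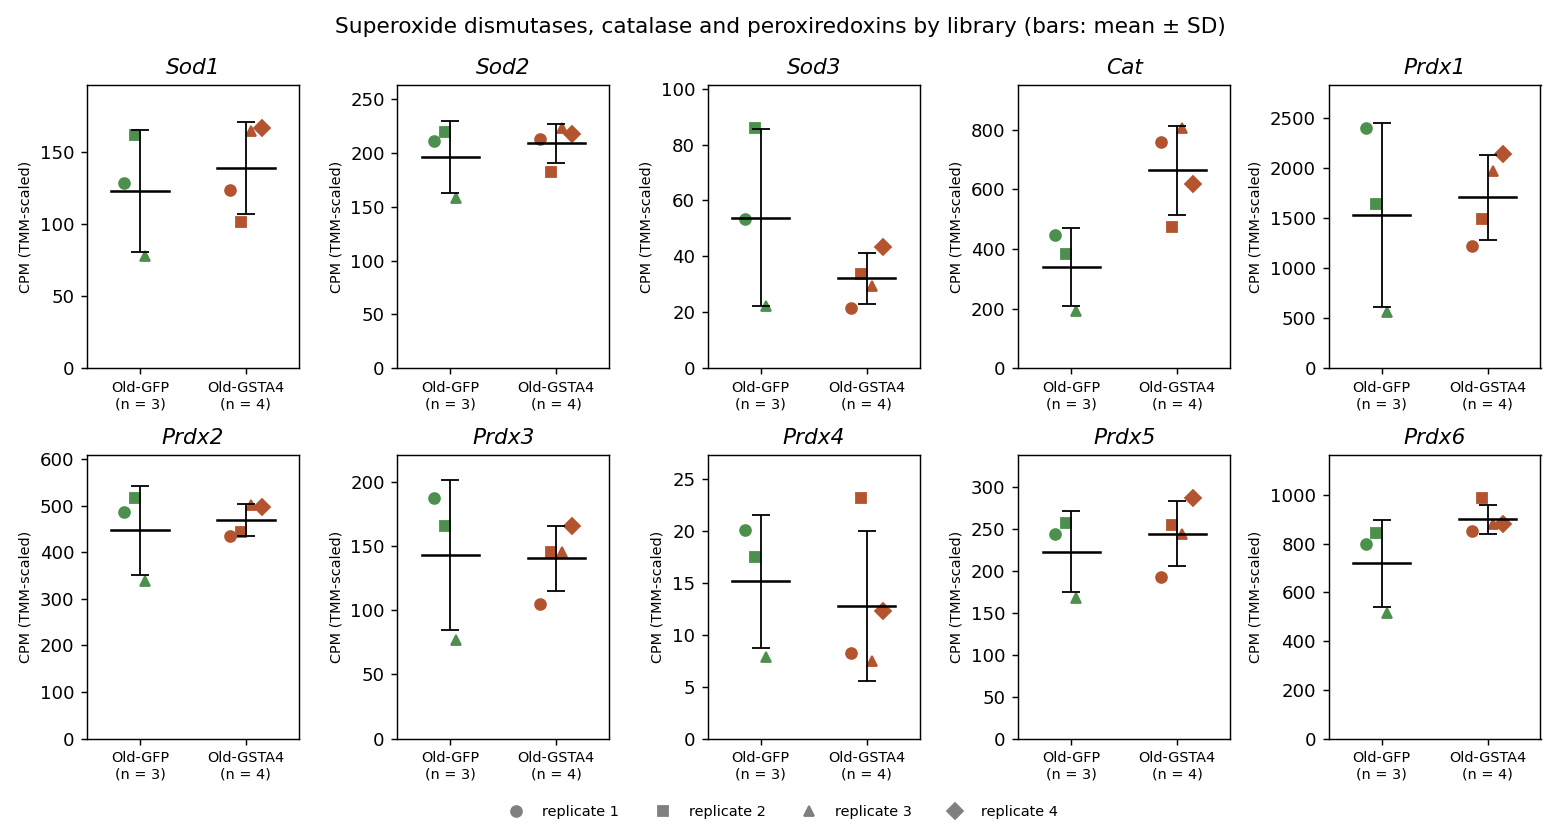
TMM-scaled CPM (vertical, from 0) of each gene in the 3 Old-GFP libraries (green) and the 4 Old-GSTA4 libraries (brown). Marker shapes give the replicate, horizontal lines the mean and bars the SD. Cat is at 193 to 446 CPM in Old-GFP and 475 to 805 CPM in Old-GSTA4, whereas most other genes overlap. Old-GFP replicate 3 is low for Cat and for most other genes.

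Sod3 encodes the secreted copper-zinc superoxide dismutase, which binds the extracellular matrix and is made largely by vascular and stromal cells (chromosome 5, 52363791 to 52371418, plus strand). It was measured at 53.4, 85.8 and 22.5 CPM in Old-GFP and at 21.6, 33.9, 29.6 and 43.5 CPM in Old-GSTA4. Old-GFP replicates 1 and 2 were the highest libraries, and Old-GFP replicate 3 lay within the range of Old-GSTA4. The difference, -0.75 ± 0.41 (SE) in log2 fold change, did not pass (edgeR, adjusted p = 0.487). It was below 0 in all 18 alternatives, from -1.63 with the rod score to -0.24 without Old-GFP replicate 2. Without Old-GFP replicate 3 it was -1.12 (adjusted p = 0.313). The 8 choroidal fibroblast markers, all detected in every library, summed to 1017, 722 and 232 CPM in Old-GFP and 363, 337, 415 and 671 CPM in Old-GSTA4. The 10 endothelial markers, also detected in every library, summed to 38.4, 58.5 and 167 CPM in Old-GFP and 63.5, 50.05, 41.3 and 47.7 CPM in Old-GSTA4. Old-GFP replicates 1 and 2 were thus high for Sod3 and the fibroblast sum, while the endothelial sum was highest in Old-GFP replicate 3, where Sod3 was low. Single genes weighed on both sums. Dcn alone was 774, 454 and 133 CPM in Old-GFP and 225, 217, 261 and 507 CPM in Old-GSTA4. Kdr alone was 104 CPM in Old-GFP replicate 3. The log2 fold change was above 0 for 3 of the 8 fibroblast markers and 1 of the 10 endothelial markers. The part of these cells was not tested.

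Sod1, the copper-zinc dismutase of the cytosol (chromosome 16, 90220754 to 90226329, plus strand), lay at 128, 162 and 77.7 CPM in Old-GFP and 124, 101, 164 and 166 CPM in Old-GSTA4. Low and high libraries occurred in both groups. The fold change was 1.13 (95% interval 0.714 to 1.80; edgeR, adjusted p = 0.838). Sod2, the manganese dismutase of the mitochondrial matrix (chromosome 17, 13006846 to 13040063, plus strand), varied least of the 10 over the libraries. It lay at 211, 219 and 158 CPM in Old-GFP and 212, 182, 223 and 217 CPM in Old-GSTA4, with a coefficient of variation of 11.9% over the 7 libraries. Its fold change was 1.06 (95% interval 0.76 to 1.49; edgeR, adjusted p = 0.896).

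Prdx1 reduces hydrogen peroxide in the cytosol and nucleus and is recycled by thioredoxin (chromosome 4, 116685544 to 116700822, plus strand). It was measured at 2394, 1634 and 567 CPM in Old-GFP and at 1225, 1488, 1964 and 2142 CPM in Old-GSTA4. The Old-GFP libraries spanned 4.22-fold and contained both the highest and the lowest value. The fold change of 1.11 had a 95% interval from 0.548 to 2.26 (edgeR, adjusted p = 0.917). The share of all peroxiredoxin counts that fell on Prdx1 was 57.9%, 47.6% and 33.9% in Old-GFP and 43.5%, 44.5%, 52.5% and 53.8% in Old-GSTA4.

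Prdx2, the other cytosolic enzyme of this type and abundant in erythrocytes (chromosome 8, 84969587 to 84974834, plus strand), lay at 487, 516 and 338 CPM in Old-GFP and 435, 445, 501 and 497 CPM in Old-GSTA4. The groups overlapped, and the Old-GSTA4 libraries spanned 1.15-fold. The fold change was 1.05 (95% interval 0.72 to 1.53; edgeR, adjusted p = 0.931). Of its exon bases, 11.5% are shared with exons of Junb or Rnaseh2a on the other strand, and the strand setting of the counting is not given in the sources used here.

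Prdx3 is confined to mitochondria (chromosome 19, 60864051 to 60874556, minus strand). It was at 187, 165 and 77.0 CPM in Old-GFP and at 105, 145, 146 and 166 CPM in Old-GSTA4, with a fold change of 0.98 (95% interval 0.60 to 1.6; edgeR, adjusted p = 0.981). Prdx5, found in mitochondria, peroxisomes and cytosol (chromosome 19, 6906697 to 6910106, minus strand), was at 244, 257 and 168 CPM in Old-GFP and 193, 254, 244 and 286 CPM in Old-GSTA4. Its fold change was 1.10 (95% interval 0.748 to 1.61; edgeR, adjusted p = 0.855), and 19.1% of its exon bases are shared with Trmt112 on the other strand. For both genes the 2 groups overlapped.

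Prdx4, the peroxiredoxin of the endoplasmic reticulum, supports oxidative protein folding (chromosome X, 155323918 to 155340754, minus strand). It was at 20.04, 17.5 and 7.88 CPM in Old-GFP and at 8.21, 23.1, 7.46 and 12.3 CPM in Old-GSTA4. These values came from 127 to 482 counts per library, and both groups held high and low libraries. The fold change was 0.845 (95% interval 0.41 to 1.74; edgeR, adjusted p = 0.861).

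Prdx6 has a single catalytic cysteine, uses glutathione in place of thioredoxin, and can repair oxidised membrane phospholipids (chromosome 1, 161240112 to 161251219, minus strand). It lay at 800, 844 and 516 CPM in Old-GFP and at 850, 986, 883 and 879 CPM in Old-GSTA4. The groups did not overlap, but by a narrow margin: 844 CPM in Old-GFP replicate 2 against 850 CPM in Old-GSTA4 replicate 1. Relative to library totals they did overlap, at 700.3 to 884 CPM and 766 to 891 CPM. The fold change was 1.25 (95% interval 0.828 to 1.89), a log2 fold change of 0.32 ± 0.27 (SE; edgeR, adjusted p = 0.647). Without Old-GFP replicate 3 it was 0.13. A near copy, Prdx6b, has its own row with 6 to 26 counts per library, and how the authors' counting treated reads that match both is not given in the sources used here.

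As a share of each library, the 10 genes together took 0.491%, 0.449% and 0.289% of counts in Old-GFP replicates 1 to 3 and 0.379%, 0.373%, 0.431% and 0.470% in Old-GSTA4 replicates 1 to 4. Counting error on any of these shares was small: the 95% Wilson interval of the lowest ran from 0.286% to 0.291%. Old-GFP averaged 0.409% ± 0.107 (SD, n = 3) and Old-GSTA4 0.413% ± 0.0457 (SD, n = 4). Peroxiredoxins made up most of it, at 0.332% ± 0.0937 (SD, n = 3) and 0.318% ± 0.0424 (SD, n = 4). Cat took 0.0368% ± 0.00934 (SD, n = 3) and 0.0609% ± 0.0137 (SD, n = 4).

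**Figure D4:**
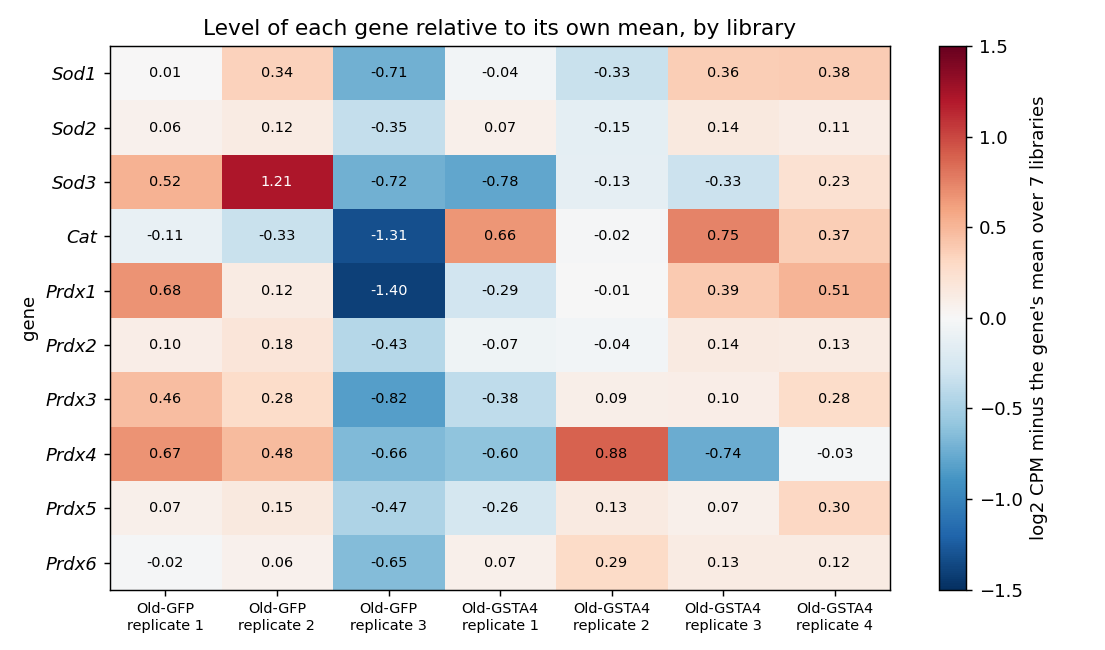
Log2 CPM of each gene (rows) in each library (columns) minus the gene's own mean over the 7 libraries, in log2 units, red above and blue below the mean. The Old-GFP replicate 3 column is negative for every gene, from -0.35 for Sod2 to -1.40 for Prdx1. The row of Cat is negative in all 3 Old-GFP libraries and slightly so in Old-GSTA4 replicate 2 (-0.017).

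The genes differed in how alike their profiles were, measured as the mean absolute difference of centred log2 CPM over the 7 libraries. The closest pair was Sod2 and Prdx2 at 0.06, followed by Prdx2 and Prdx5 at 0.10 and Sod2 and Prdx6 at 0.13. The most distant was Cat and Prdx4 at 0.90, followed by Cat and Sod3 at 0.79. Among 4762 other genes of mean log2 CPM at least 5, those nearest to Cat were Inpp5k, a phosphoinositide phosphatase, at 0.05, Flvcr2, a heme and choline transporter family member, at 0.06, and Lpcat3, which loads polyunsaturated chains into phospholipids, at 0.08. The median distance from Cat was 0.49. Nearest to Prdx1 were Msmo1 (0.08), Sdcbp (0.09) and Snx2 (0.10), and among the nearest to Sod2 were Pef1 and Pcbp1 at 0.06 each. All profiles share the same 7 libraries and their scaling.

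Ratios of 2 genes within a library do not depend on the scaling between libraries. The log2 ratio of Cat to Sod1 counts was 1.80, 1.24 and 1.31 in Old-GFP and 2.61, 2.23, 2.29 and 1.90 in Old-GSTA4. Every Old-GSTA4 library lay above every Old-GFP library, the closest being 1.90 and 1.80. The means differed by 0.81, with p = 0.0571 in the two-sided exact permutation test over 35 relabellings, whose smallest possible value is 0.0286, and 0.171 after adjustment over the 3 ratios. The mitochondrial to cytosolic ratio of dismutases, Sod2 to Sod1, had means of 0.73 ± 0.29 (SD, n = 3) and 0.61 ± 0.23 (SD, n = 4), with p = 0.629 in the exact test. For the peroxiredoxins, Prdx3 to Prdx1, they were -3.29 ± 0.40 (SD, n = 3) and -3.59 ± 0.18 (SD, n = 4), with p = 0.229 in the exact test. For both of these ratios the groups overlapped.

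Hydrogen peroxide for catalase comes largely from peroxisomal oxidases, and superoxide and peroxide are also made by NADPH oxidases and amine oxidases. Of the 28 listed producers 26 were in the table and 20 were tested, and 0 passed the adjusted threshold. Smox was the only 1 below 0.05 before adjustment, where the background was 11.9% of all genes tested. The list's median log2 fold change was -0.06, beside -0.07 for all genes. Acox3, a peroxisomal acyl-CoA oxidase singled out after its values were seen, did not overlap between the groups, at 20.8 to 25.2 CPM and 25.7 to 35.03 CPM, its log2 fold change being 0.39 (adjusted p = 0.493). Relative to library totals the groups overlapped for Acox3. With TMM scaling 2 of the 20 were higher in every Old-GSTA4 library and 2 were lower. The background was 6.44% of all genes higher and 5.61% lower.

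Smox, the spermine oxidase, had a log2 fold change of 0.64 ± 0.27 (SE; edgeR, adjusted p = 0.40), and its groups overlapped. It was no longer below 0.05 when Old-GFP replicate 1 or 2 or Old-GSTA4 replicate 1, 3 or 4 was left out. Ncf1, a cytosolic subunit of the phagocyte NADPH oxidase, was at 4.33 to 6.85 CPM in Old-GFP and 2.95 to 4.00 CPM in Old-GSTA4. The 14 macrophage and microglia markers summed to 1350 to 4233 CPM and 1714 to 3902 CPM, of which Lyz2 alone was 664 to 2859 CPM. Of the 14, 13 had a log2 fold change below 0, and the exception was Csf1r at 1.11. Xdh, xanthine dehydrogenase, was at 11.7 to 13.8 CPM and 6.84 to 11.5 CPM. Neither Ncf1 (adjusted p = 0.532) nor Xdh (adjusted p = 0.606) passed in edgeR's test. Their groups did not overlap, where the background was 5.61% of all genes lower.

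Catalase reaches the peroxisome through the PEX import machinery. All 13 listed import and assembly genes were tested, 0 passed, 0 were below 0.05 before adjustment, and with TMM scaling none separated the groups. Among all genes 11.9% were below 0.05 before adjustment and 12.0% separated the groups. Their log2 fold changes were above 0 for 10, with a median of 0.15, against 44.6% above 0 and a median of -0.07 among all genes. Pex19, the chaperone of peroxisomal membrane proteins, averaged 116 CPM ± 24.3 (SD, n = 3) in Old-GFP and 162 CPM ± 18.6 (SD, n = 4) in Old-GSTA4 (edgeR, adjusted p = 0.433). Pex10, a subunit of the ubiquitin ligase that recycles the import receptor, had a log2 fold change of -0.55 ± 0.36 (SE), which was -0.18 without Old-GFP replicate 3 and 0.42 with the rod score. Pex7, the receptor of the second targeting signal, had -0.44 ± 0.32 (SE).

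**Figure D5:**
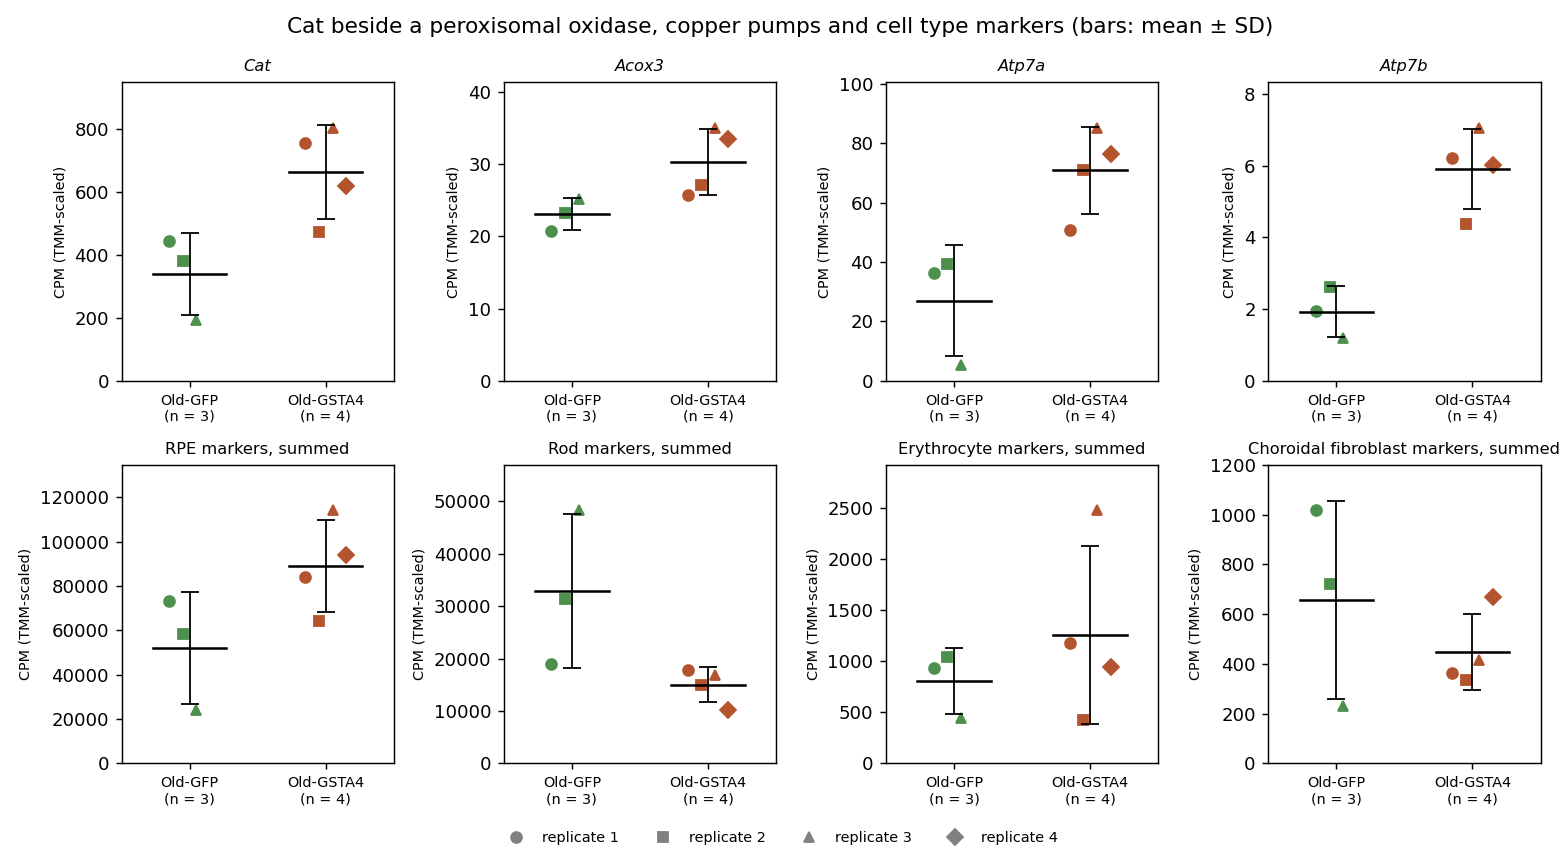
TMM-scaled CPM (vertical, from 0) per library for Cat, the peroxisomal oxidase Acox3, the copper pumps Atp7a and Atp7b, and the summed marker lists of RPE, rods, erythrocytes and choroidal fibroblasts. Lines give the mean and bars the SD. Cat, Acox3, Atp7a and Atp7b are higher in every Old-GSTA4 library with this scaling (relative to library totals, of these only Atp7a and Atp7b are), and the rod sum is lower in every Old-GSTA4 library.

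Sod1 and Sod3 need copper, which enters through Slc31a1, reaches Sod1 through the chaperone Ccs, and is pumped into the secretory pathway for Sod3 by Atp7a. All 6 listed copper genes were tested and 0 passed the adjusted threshold. Before adjustment 2 were below 0.05 and higher, and 1 was below 0.05 and lower, where the background was 5.27% of all genes higher and 6.63% lower. Atp7a was at 36.4, 39.3 and 5.38 CPM in Old-GFP and 50.9, 71.0, 85.2 and 76.4 CPM in Old-GSTA4. Its log2 fold change was 1.39 ± 0.55 (SE; edgeR, adjusted p = 0.384), but 0.91 without Old-GFP replicate 3, 0.74 with the RPE score and 0.41 with the rod score. It was no longer below 0.05 before adjustment without Old-GSTA4 replicate 2, 3 or 4, nor was Slc31a2 without Old-GFP replicate 3. Atp7b, the related pump best known from liver, was low, at 1.20 to 2.63 CPM and 4.37 to 7.05 CPM. For it the log2 fold change was 1.61 ± 0.45 (SE; edgeR, adjusted p = 0.363), and DESeq2 called it (1.63, adjusted p = 0.034). Neither Atp7a nor Atp7b overlapped between the groups, with TMM scaling or with library totals. Among all genes 6.44% were higher in every Old-GSTA4 library with TMM scaling and 2.02% with library totals. Slc31a2, an intracellular copper transporter, had a log2 fold change of -0.94 ± 0.31 (SE; adjusted p = 0.363), but -0.59 without Old-GFP replicate 3, -0.48 with the RPE score and -0.15 with the rod score.

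Most peroxiredoxins other than Prdx6 are returned to their active form by thioredoxin and thioredoxin reductase, and sulfiredoxin (Srxn1) rescues some of them after overoxidation. Of the 15 genes listed for this recycling, all were tested and 0 passed. Glrx5, a mitochondrial glutaredoxin, was the only 1 below 0.05 before adjustment, where the background was 11.9% of all genes tested. Its log2 fold change was -0.92 ± 0.40 (SE; edgeR, adjusted p = 0.411). It was -0.11 with the rod score, and it was no longer below 0.05 when any library but Old-GFP replicate 1 or Old-GSTA4 replicate 3 was left out. The median log2 fold change of the list was -0.06, beside -0.07 for all genes. No gene of it separated the groups with TMM scaling, against 12.0% of all genes. Relative to library totals 2 of the 15, Glrx5 and Txnip, were lower in every Old-GSTA4 library, where the background was 12.0% of all genes lower. Txn2, the mitochondrial thioredoxin that serves Prdx3, averaged 240 CPM ± 47.3 (SD, n = 3) in Old-GFP and 275 CPM ± 15.3 (SD, n = 4) in Old-GSTA4 (adjusted p = 0.751). Txnip, an inhibitor of thioredoxin, averaged 31.4 CPM ± 5.33 (SD, n = 3) in Old-GFP and 23.2 CPM ± 5.11 (SD, n = 4) in Old-GSTA4, and Sesn3, a sestrin, had a log2 fold change of 0.44 ± 0.34 (SE), which was 0.11 without Old-GFP replicate 3 and 0.087 in limma-voom.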

How the data were processed

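The authors deposited a table of read counts per gene symbol, with 1 column per library. That the counts were raw was assumed from the naming of the table. STAR 2.7.1a and featureCounts 1.6.2, and the builds GRCm38 and GRCh38, are named per the submitters' processing notes. Annotation, strand setting and treatment of multi-mapping reads are not given in the sources used here. Per the labels' protocols, polyadenylated RNA was amplified as full-length cDNA (SMART-Seq v4) and fragmented by transposase. No molecular identifiers are mentioned, so intervals on shares cover counting error only. Columns were matched to samples by library name, and replicate numbers follow the sample titles. The 26 repeated symbols kept their rows.

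The main test was edgeR 4.0.16 (R 4.3.3), a quasi-likelihood F-test with group as the only factor, TMM scaling, the default expression filter, robust dispersions and Benjamini-Hochberg adjustment over all genes tested. It was also run on simulated counts, in which no library stood apart as Old-GFP replicate 3 did. That run cannot show how such a library affects the test. SE was derived as the absolute log2 fold change over the root of F, and 95% intervals use the fit's degrees of freedom. Log2 CPM used a prior count of 2. Alternatives were 2 scalings, 2 filters, DESeq2 1.42.0, limma-voom (limma 3.58.1, always with quality weights per library) and 2 replicate blocks. Further alternatives were rod, RPE and Y-linked covariates (the last 2 added after seeing the data), and each library left out.

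The members and lists were chosen with earlier results of these data known. Named were all 10 members, the 2 smallest p-values per direction in each pathway list, and the 3 nearest profiles to Sod2, Cat and Prdx1. A few genes that this rule picks are not reported here.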

Additional observations from a re-analysis of the deposited data

Results flagged for a closer look

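Of 46 results examined for an isolated library among the 4 Old-GSTA4 libraries, 1 stood out, where chance gives about 5% of them. Pex10, a peroxisomal import gene, was at 12.0 CPM in replicate 3 and at 10.3, 10.4 and 10.3 CPM in replicates 1, 2 and 4. On the log2 scale the gap of replicate 3 to its neighbour was 0.933 of the group's range. No result of the 10 enzyme genes was isolated in this way.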

How the results depend on the processing

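With 3 against 4 libraries and 1 Old-GFP library that stood apart, the precision was set by the spread between libraries and not by depth. Cat and Prdx6 stayed above 0 and Sod3 below 0 under every alternative run, though none of them passed under any. Prdx6 came close to 0, ranging from 0.019 to 0.455. The number of genes past the adjusted threshold, 0 in the main fit (1794 below 0.05 before adjustment), was 172 in DESeq2, 1 with the rod score (Cyp2f2) and 0 to 1 when single libraries were left out (hGSTA4, without Old-GSTA4 replicate 3). Of the pathway genes DESeq2 called 1 (Atp7b). Before adjustment, 3293 genes were below 0.05 in limma-voom and 1032 without Old-GSTA4 replicate 3. Of these unadjusted calls 44.3% were higher with TMM scaling and 11.1% with library totals.

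The labels do not say that equal numbers pair samples, so the main test had no replicate block. Same-numbered libraries showed correlations of -0.09, 0.00 and 0.01 by title and -0.09, 0.01 and -0.13 by library name. These are a different quantity from the correlations between libraries given earlier. By library name, number 3 was the best match for its Old-GFP library. So few pairs cannot decide whether samples were paired. A replicate block left 1 gene past the threshold by title numbers and 1 by library-name numbers (hGSTA4 in both), with 849 and 1148 genes below 0.05 before adjustment. Under the title block the ratio differences were -0.04 for Sod2 to Sod1, -0.27 for Prdx3 to Prdx1 and 0.93 for Cat to Sod1. Prdx3 was at 0.019 under the library-name block.

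Several small log2 fold changes crossed 0, and the cause was not tested. With library totals they were -0.076 for Sod1, -0.19 for Sod2, -0.054 for Prdx1, -0.20 for Prdx2, -0.14 for Prdx5, -0.078 for Txn2, -0.23 for Pef1, -0.15 for Pcbp1, -0.10 for Msmo1 and -0.12 for Snx2. With the rod score they were -0.20 for Sod1, -0.093 for Sod2, -0.84 for Prdx1, -0.20 for Prdx2, -0.29 for Prdx5, -0.13 for Txn2, 0.42 for Pex10, -0.035 for Pef1, -0.79 for Msmo1, -0.69 for Sdcbp and -0.83 for Snx2. With the RPE score, an alternative chosen after seeing the data, they were -0.18 for Sod1, -0.078 for Sod2, -0.42 for Prdx1, -0.14 for Prdx2, -0.10 for Prdx5, -0.085 for Pef1, -0.030 for Pcbp1, -0.44 for Msmo1, -0.24 for Sdcbp and -0.42 for Snx2. In limma-voom they were -0.040 for Prdx2, -0.082 for Pef1 and -0.025 for Pcbp1.

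Leaving out single libraries gave ranges of -0.064 to 0.43 for Sod1, -0.042 to 0.18 for Sod2, -0.24 to 0.63 for Prdx1, -0.095 to 0.19 for Prdx2, -0.033 to 0.25 for Prdx5, -0.073 to 0.16 for Pef1, -0.012 to 0.29 for Pcbp1, -0.28 to 0.63 for Msmo1, -0.072 to 0.85 for Sdcbp and -0.25 to 0.63 for Snx2. The lowest value of each of these came without Old-GFP replicate 3. Prdx3 ranged from -0.33 to 0.21 and Prdx4 from -0.69 to 0.014, and the difference in the Sod2 to Sod1 ratio from -0.26 to 0.036.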
